A study of Mus musculus with 16 samples.

Results

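The 4 neurofilament genes of central axons, Nefl, Nefm, Nefh and Ina, were followed in RNA from the mouse prelimbic cortex (PL). They were taken by gene symbol from a fixed list, which was chosen with earlier results of these data known. Each symbol matched 1 of the 39017 gene rows in each of the 3 tables. All 4 were abundant enough to carry an adjusted p-value in every table.

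In C57BL/6J mice, AAV-IV-GFPL10, which carries a ribosomal protein fused to green fluorescent protein, was injected in the PL, and CAV-Cre in 1 of 3 targets of PL axons: the nucleus accumbens (NAc), an area of the ventral striatum, the basolateral amygdala (BLA), or the dopaminergic ventral tegmental area (VTA). CAV is taken up by axon ends and carried back to the cell body. In this method, viral translating ribosome affinity purification (vTRAP), Cre switches on the tagged ribosomal protein, so that tagged ribosomes mark PL cells whose axons reach the injected target. The immunoprecipitate (IP) held polysome-bound RNA pulled down with anti-GFP beads, and the Input was total RNA of the PL around the labelled cells. There were 3 IP and 3 Input samples for PL-NAc, 3 and 3 for PL-BLA, and 2 and 2 for PL-VTA, in 6 groups and 16 samples. Both viruses were given to the animals of every group, Input included. The labels used here give no age or sex and do not say whether replicates were separate animals or pools, so the p-values cover the spread between samples of a group, whether technical or biological. They also do not say which other targets the labelled neurons reach.

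Neurofilaments are the ropes of long axons. They are built from type IV intermediate filament proteins: the light chain (Nefl), which forms the core, the medium and heavy chains (Nefm, Nefh), whose long phosphorylated tails stand out from the filament, and alpha-internexin (Ina), which joins them in central neurons. Their amount is known as a main determinant of axon calibre, and large deep-layer pyramidal cells with long descending axons are known to be rich in them.

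The 4 genes are related in sequence and share part of their exon layout. In GENCODE release M21 (GRCm38), Nefl (ENSMUSG00000022055) lies at chr14:68083863-68089095 on the plus strand, Nefm (ENSMUSG00000022054) at chr14:68082590-68124846 on the minus strand, Nefh (ENSMUSG00000020396) at chr11:4938754-4948064 on the minus strand, and Ina (ENSMUSG00000034336) at chr19:47014698-47025327 on the plus strand. In the transcript used here for each gene (for Nefm the one of shorter genomic span), 1 internal coding exon is exactly 125 bases long: exon 2 of Nefl, Nefm and Ina and exon 3 of Nefh. Of 21951 protein-coding genes in that annotation, 7.06% have an exon of this length. The exon is printed for Nefl and Ina to show how far these members can be told apart by their reads. Capitals mark the 95 positions at which both have the same base, and the letters are those of the GENCODE transcripts, 5′ to 3′ on the coding strand, at chr14:68085974-68086098 for Nefl and chr19:47021833-47021957 for Ina, both on the plus strand.
Nefl: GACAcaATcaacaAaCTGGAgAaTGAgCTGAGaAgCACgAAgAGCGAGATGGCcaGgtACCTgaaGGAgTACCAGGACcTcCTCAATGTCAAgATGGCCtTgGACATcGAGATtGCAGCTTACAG
Ina: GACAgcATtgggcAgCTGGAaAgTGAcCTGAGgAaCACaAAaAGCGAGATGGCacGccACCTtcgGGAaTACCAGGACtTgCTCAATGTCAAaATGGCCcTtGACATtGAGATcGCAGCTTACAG
In this exon 76.0% of the bases were identical between Nefl and Ina. Over the whole transcripts their longest run of identical bases was 13, so that reads longer than this differ between them. The transcripts were of like length, 3380 bases for Nefl, 3334 for Nefm, 3994 for Nefh and 3240 for Ina. Their coding parts were GC-rich and differed more in length, with 1629 bases (59.0% GC) in Nefl, 2544 (56.1%) in Nefm, 3270 (59.9%) in Nefh and 1503 (64.0%) in Ina.

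Nefl and Nefm are neighbours on opposite strands, with 30187 bases between the end of Nefl and the shorter Nefm transcript. A second, longer Nefm transcript in the same annotation has a last exon that covers 1108 exonic bases of Nefl. Library preparation (SMARTer Ultra Low and Nextera XT) does not mark strand, so reads from these bases cannot be assigned by strand, and the annotation used for counting is not given in the sources. The part of these reads in the values was not tested. Likewise 456 exonic bases of Ina are covered by exons of Nt5c2 on the other strand. For Nefh no exon of another gene overlapped.

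Ina stood highest of the 4 in IP over Input in every projection. Its promoter is printed because it is the member in the RefSeq promoter table (GRCm38.p6). The 250 bases before its start, chr19:47014431-47014680 on the plus strand, are given with GC boxes (GGGCGG, searched on both strands) and the letters TTAAAA in capitals.
Ina: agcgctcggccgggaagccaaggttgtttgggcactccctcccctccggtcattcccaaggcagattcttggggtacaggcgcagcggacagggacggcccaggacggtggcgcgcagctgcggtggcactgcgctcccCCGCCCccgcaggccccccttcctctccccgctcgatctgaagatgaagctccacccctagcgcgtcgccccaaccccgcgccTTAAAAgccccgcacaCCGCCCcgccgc
The window was 70.8% GC, against a median of 52.4% over the 32851 promoters of the table. It held 2 GC boxes, both on the reverse strand, a motif found in 32.7% of the promoters, and 1 TTAAAA on the forward strand, ending 23 bases from the start, a motif found in 17.7%. The letters CCAAT (33.9% of promoters), CACGTG (6.02%) and TGACGTCA (1.55%) were not in this window on either strand. The motifs do not overlap each other here.

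All values below come from the authors' comparison of IP with Input in each projection, as a mean normalized count per gene and a log2 fold change of IP over Input with its standard error (SE). No value per sample was used here. From the mean and the fold change, the mean of the IP and of the Input arm was computed for each gene, and is called the implied mean, with the 2 arms weighted equally. The authors' means add up to 15437849 (PL-NAc), 16347808 (PL-BLA) and 16520414 (PL-VTA) over all genes; the depth of single libraries is unknown. A gene was called at an adjusted p under 0.05.

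In neurons projecting to NAc, Ina was higher and Nefm and Nefh were lower on the tagged polysomes than in the surrounding tissue. Ina had an implied mean of 7664 normalized counts in the IP and 6314 in the Input, Nefl 8817 in the IP and 9482 in the Input, Nefm 2411 in the IP and 2798 in the Input, and Nefh 572 in the IP and 844 in the Input. The heavy chain gene Nefh moved most, to 67.7% of Input. In the authors' deposited table for PL-NAc the log2 fold change of Nefh was -0.56 (SE 0.11, DESeq2 adjusted p 9.4e-07). For Nefm the authors' deposited table gave -0.22 (SE 0.07, DESeq2 adjusted p 0.00761), and for Ina 0.28 (SE 0.06, DESeq2 adjusted p 7.7e-06). Nefl, at -0.10 (SE 0.06) in the authors' deposited table, was not called (DESeq2 adjusted p 0.144). So 1 of 4 was called higher and 2 of 4 lower, where 21.4% of 17998 tested genes were called higher and 21.7% lower in PL-NAc, 43.1% in either direction. In bulk RNA of this kind, fewer cells of a type, less RNA per cell and a smaller part of it on polysomes cannot be told apart.

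In neurons projecting to BLA Nefh was lower than in the Input, and Ina, Nefl and Nefm were not called. Implied means were 6679 normalized counts in the IP and 5994 in the Input for Ina, 10450 in the IP and 10085 in the Input for Nefl, 2774 in the IP and 2837 in the Input for Nefm, and 690.4 in the IP and 873 in the Input for Nefh. Nefh alone of the 4 was called, and was lower, at -0.34 (SE 0.12, DESeq2 adjusted p 0.0161) in the authors' deposited table for PL-BLA. The same source, the authors' deposited table, gave 0.16 (SE 0.07, DESeq2 adjusted p 0.0644) for Ina, 0.05 (SE 0.07, DESeq2 adjusted p 0.576) for Nefl and -0.03 (SE 0.09, DESeq2 adjusted p 0.81001) for Nefm. The count of 1 of 4 lower and 0 of 4 higher stands beside 20.2% lower and 20.8% higher over 17668 tested genes, 41% in either direction. At an unadjusted p under 0.05, Ina (p = 0.0276 in the authors' deposited table, DESeq2) would also have passed.

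In neurons projecting to VTA all 4 fold changes were positive, and Ina, Nefm and Nefl were called higher. The implied means were 12462 normalized counts in the IP and 6464 in the Input for Ina, 14114 in the IP and 9591 in the Input for Nefl, 4913 in the IP and 2896 in the Input for Nefm, and 1157 in the IP and 863 in the Input for Nefh. Ina, at 1.93-fold, rose most. In the authors' deposited table for PL-VTA it was 0.95 (SE 0.13, DESeq2 adjusted p 8.9e-11), and Nefm 0.76 (SE 0.14, DESeq2 adjusted p 7.0e-07), or 1.70-fold. Nefl was 0.56 (SE 0.13, DESeq2 adjusted p 1.8e-04), or 1.47-fold, in the authors' deposited table. Nefh was 0.42 (SE 0.18) in the authors' deposited table and missed the threshold (DESeq2 adjusted p 0.0700); its 95% interval on the log2 scale ran from 0.08 to 0.77. Thus 3 of 4 were called higher and 0 lower, where 11% of 15440 tested genes were called higher and 10.5% lower in PL-VTA, 21.5% in either direction.

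**Figure D1:**
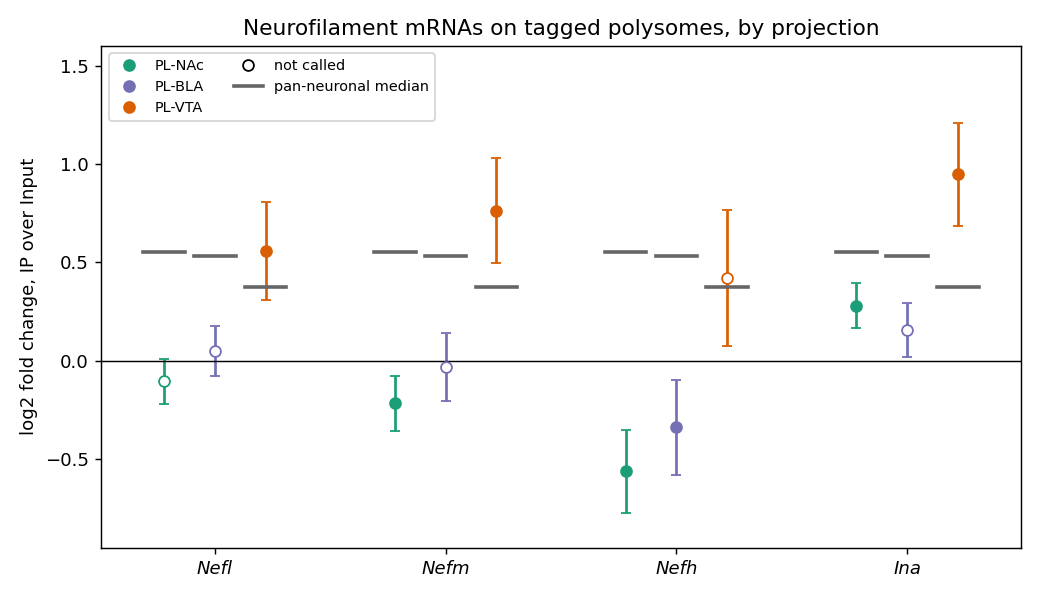
Points show the log2 fold change of IP over Input for each gene in PL-NAc, PL-BLA and PL-VTA, with 95% intervals from the authors' standard errors. Filled points passed an adjusted p under 0.05 and grey bars mark the median of the pan-neuronal markers. The PL-VTA points run from 0.42 to 0.95, while those of PL-NAc and PL-BLA run from -0.56 to 0.28.

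The order of the fold changes among the genes was the same in PL-NAc and PL-BLA, with Ina above Nefl, Nefl above Nefm and Nefm above Nefh. In PL-VTA Nefm lay above Nefl, and the ends of the order were the same. These orders are described without a test. In PL-NAc the 95% interval of Ina (0.17 to 0.39) lay wholly above that of Nefl (-0.22 to 0.01), while the intervals of Nefl and Nefm (-0.35 to -0.08) overlapped. In PL-BLA each gene's interval overlapped its neighbour's, and Ina (0.02 to 0.29) and Nefh (-0.58 to -0.10) did not overlap. In PL-VTA all 4 intervals overlapped.

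Scaled as parts in 1000000 of the summed means, per kilobase of transcript, the Input level was highest for Nefl and lowest for Nefh in each projection. On this scale Nefl ran at 172 to 183, Ina at 113 to 126, Nefm at 52.1 to 54.4 and Nefh at 13.1 to 13.7 in the 3 Inputs. The 3 Inputs thus lay close to each other, although the 3 tables were normalized separately and no test was made across them. The per-length scale takes coverage as even along the transcript. In the IP the same scale gave Nefl 169, 189 and 253, Ina 153, 126 and 233, Nefm 46.8, 50.9 and 89.2, and Nefh 9.28, 10.6 and 17.5 in PL-NAc, PL-BLA and PL-VTA. Summed over the 4 genes, the level was 378 in the IP and 376 in the Input for PL-NAc, 377 in the IP and 361 in the Input for PL-BLA, and 592 in the IP and 358 in the Input for PL-VTA.

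The share of each gene in the summed level is given without a test. Ina held 40.5% of the summed level in the IP and 33.6% in the Input of PL-NAc, 33.5% in the IP and 31.3% in the Input of PL-BLA, and 39.3% in the IP and 33.7% in the Input of PL-VTA. Nefh, the heavy chain, held 2.45% in the IP and 3.64% in the Input of PL-NAc, 2.81% in the IP and 3.70% in the Input of PL-BLA, and 2.96% in the IP and 3.65% in the Input of PL-VTA. In the IP of each projection the Ina share was thus higher and the Nefh share lower than in the Input, including PL-VTA, where the fold change of Nefh was positive. Nefl held 44.7% in the IP and 48.3% in the Input of PL-NAc, 50.2% in the IP and 50.5% in the Input of PL-BLA, and 42.7% in the IP and 48.0% in the Input of PL-VTA. Nefm held 12.4% in the IP and 14.5% in the Input of PL-NAc, 13.5% in the IP and 14.4% in the Input of PL-BLA, and 15.1% in the IP and 14.7% in the Input of PL-VTA. The Nefl share was lower in the IP of each projection, and that of Nefm in PL-NAc and PL-BLA only. Nefl was 13.1 to 13.7 times as abundant as Nefh in the 3 Inputs, and 18.2, 17.9 and 14.4 times in the IP of PL-NAc, PL-BLA and PL-VTA.

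**Figure D2:**
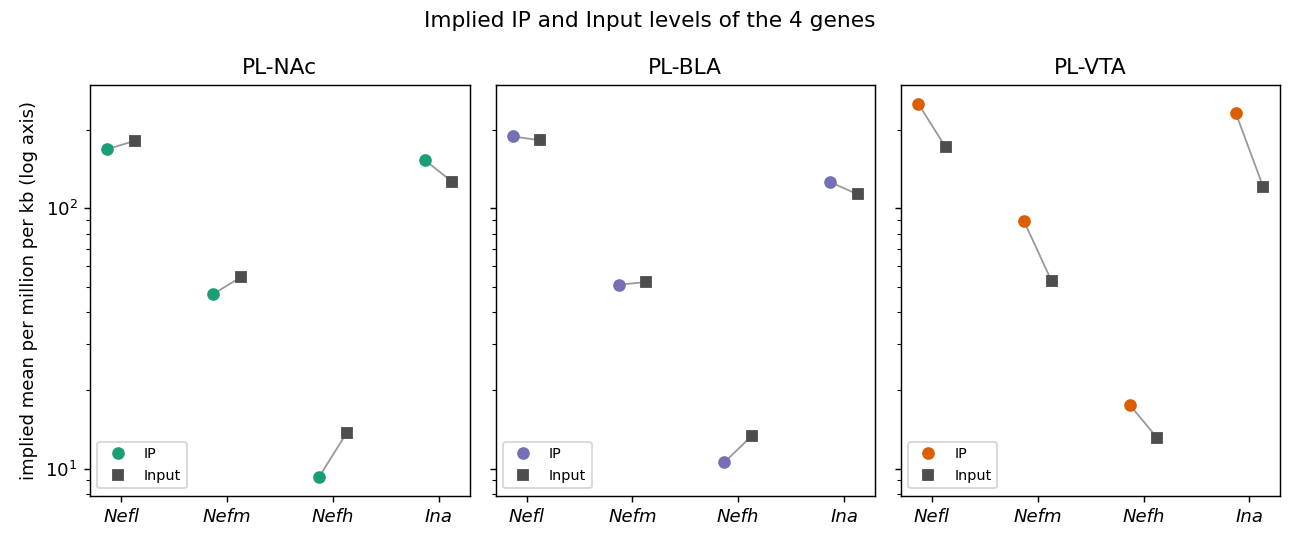
Implied mean as parts in 1000000 of the summed means, per kilobase of transcript (log axis), in the IP (circles, left of each pair) and the Input (squares) for the 4 genes in each projection. Squares stay near the same heights in all 3 panels, and the circles of PL-VTA lie above their squares, with Ina at 233 against 121.

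The difference between projections was then tested for each gene, as one log2 fold change less the other, over the standard error of that difference (two-sided Wald z, with Benjamini-Hochberg adjustment over all genes tested in both tables). All 4 genes were less enriched in PL-NAc than in PL-VTA and in PL-BLA than in PL-VTA. Over all genes, 1.94% of 15432 were called lower and 1.43% higher in PL-NAc than in PL-VTA, 3.36% in either direction. For PL-BLA and PL-VTA 2.27% of 15431 were called lower and 2.34% higher in PL-BLA, 4.61% in either direction. The 2 comparisons share the PL-VTA samples.

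Nefm and Nefh had the largest of the 4 differences between PL-NAc and PL-VTA, though gaps between genes were not tested. Nefm was -0.22 in PL-NAc and 0.76 in PL-VTA in the authors' deposited table, a difference of -0.98 (SE 0.15, Wald z with Benjamini-Hochberg adjusted p 6.1e-08). Nefh was -0.56 in PL-NAc and 0.42 in PL-VTA in the authors' deposited table, a difference of -0.98 (SE 0.21, adjusted p 1.8e-04, Wald z). These correspond to 1.97-fold and 1.98-fold more enrichment in PL-VTA. For Ina the difference was -0.67 (SE 0.15, adjusted p 4.3e-04, Wald z) and for Nefl -0.66 (SE 0.14, adjusted p 2.3e-04, Wald z), so that Nefl was 1.58-fold and Ina 1.59-fold more enriched in PL-VTA. Among the 15432 differences Nefh lies at percentile 3.50 and Nefl at percentile 8.68.

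Against PL-VTA, PL-BLA gave differences of -0.79 (SE 0.16) for Nefm, -0.79 (SE 0.15) for Ina, -0.76 (SE 0.21) for Nefh and -0.51 (SE 0.14) for Nefl. Their adjusted p were 7.8e-05 for Nefm, 1.8e-05 for Ina, 0.0121 for Nefh and 0.0125 for Nefl (Wald z, Benjamini-Hochberg). The median difference over all genes was -0.03 for this pair and -0.05 for PL-NAc minus PL-VTA.

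Between PL-NAc and PL-BLA none of the 4 passed. The differences, PL-NAc minus PL-BLA, were -0.16 for Nefl, -0.18 for Nefm, -0.22 for Nefh and 0.12 for Ina, with adjusted p of 0.694, 0.792, 0.901 and 0.9097 (Wald z, Benjamini-Hochberg). At an unadjusted p under 0.05 the count was also 0 of 4. Over 17444 genes 0.527% were called higher in PL-NAc at the adjusted threshold, 1.02% lower and 1.55% in either direction. The 95% intervals ran from -0.33 to 0.02 for Nefl, from -0.41 to 0.04 for Nefm, from -0.54 to 0.10 for Nefh and from -0.06 to 0.30 for Ina. A difference of up to 0.54 on the log2 scale for Nefh therefore lies within its interval.

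**Figure D3:**
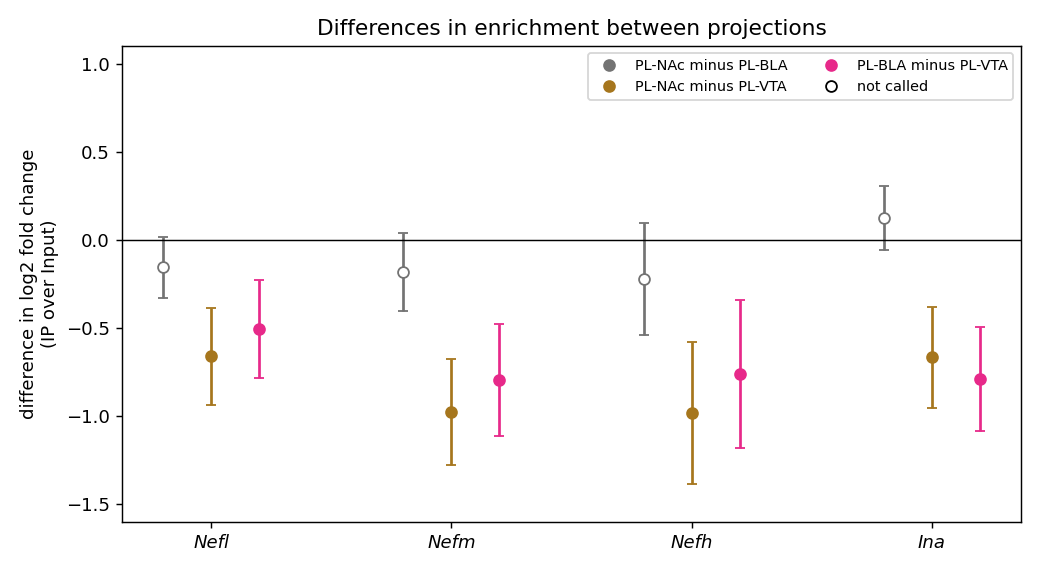
Differences in log2 fold change between projections for each gene, as the first projection named minus the second, with 95% intervals. Filled points passed an adjusted p under 0.05. All 8 differences from PL-VTA lie between -0.98 and -0.51, and the 4 open points of PL-NAc minus PL-BLA lie between -0.22 and 0.12.

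Set against the median of pan-neuronal markers, the 4 genes were low in PL-NAc and PL-BLA. The median log2 fold change of 14 pan-neuronal markers was 0.55, 0.53 and 0.37 (PL-NAc, PL-BLA, PL-VTA), with 11, 11 and 8 of the 14 called higher and none lower. Over all tested genes the median was -0.03, -0.02 and 0.02, with 21.4%, 20.8% and 11% called higher and 21.7%, 20.2% and 10.5% lower. Excitatory neuron markers (11 genes) had medians of 0.62, 0.63 and 0.16, with 9, 9 and 3 called higher and 1, 0 and 2 lower, and 4 of them were higher in PL-NAc than in PL-VTA. Less the pan-neuronal median, all 4 genes were lower in PL-NAc, from -1.12 for Nefh to -0.27 for Ina, and all 4 were called lower (4 of 4, Wald z). In PL-BLA they ran from -0.87 for Nefh to -0.38 for Ina, again with all 4 called lower. In PL-VTA they ran from 0.05 for Nefh to 0.57 for Ina, and 2 of 4 were called higher, Ina (adjusted p 2.0e-04, Wald z) and Nefm (0.39, adjusted p 0.0202, Wald z), while Nefl, at 0.18, lost its call (adjusted p 0.284, Wald z). The centring shifts every gene of a projection by the same amount and takes the marker median as free of error. The share of all genes called after it is not given here, so these calls do not set the 4 genes apart. Under this centring Ina turned negative in PL-NAc and PL-BLA, and Nefl in PL-BLA. All 8 differences from PL-VTA were called under it too, between -1.16 and -0.66. The amount taken off was smaller in PL-VTA (0.37) than in PL-NAc (0.55) and PL-BLA (0.53). This centring could thus only widen these differences, and their calls under it are no further support. Among the fold changes of all tested genes, Nefh stood at percentile 21.2 (PL-NAc), 29.5 (PL-BLA) and 84.2 (PL-VTA), and Ina at percentile 74.2, 64.5 and 98.2. Among genes with a mean of at least 1000, Nefh would stand at percentile 5.72, 9.97 and 73.5, and Ina stood at 53.9, 40.3 and 97.5.

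Layer 5 extratelencephalic markers, genes of the deep pyramidal cells that send axons out of the forebrain, also differed between PL-VTA and the other projections. Of 10 such markers 4 were called higher and 3 lower in PL-NAc (median -0.06), 4 higher and 5 lower in PL-BLA (median -0.70), and 9 higher and none lower in PL-VTA (median 1.52). Over all tested genes 21.4%, 20.8% and 11% were called higher and 21.7%, 20.2% and 10.5% lower in that order. In the difference test 9 of the 10 markers were lower in PL-NAc than in PL-VTA, beside 1.94% of all genes. Likewise 9 of 10 were lower in PL-BLA than in PL-VTA, beside 2.27%. The marker list was chosen with earlier results of these data known, so these counts are not independent of them. Fezf2, the regulator of subcerebral fate, stood in the authors' deposited table at 1.57 (SE 0.08) for PL-NAc, 0.84 (SE 0.10) for PL-BLA and 2.94 (SE 0.15) for PL-VTA. Pou3f1, a POU transcription factor, was -0.55, -1.65 and 1.89 in the same order in the authors' deposited table. PL-NAc and PL-BLA differed in 5 of these 10 markers, all higher in PL-NAc, a contrast in which none of the neurofilament genes passed. Over all genes 0.527% were called higher in PL-NAc in that contrast.

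**Figure D4:**
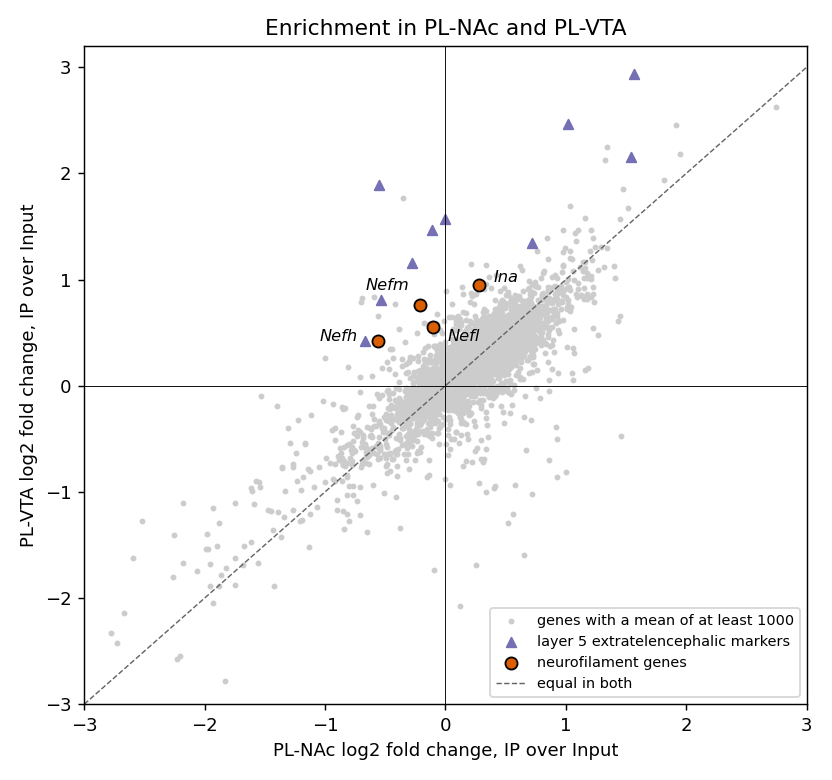
Log2 fold change of IP over Input in PL-NAc (x axis) and PL-VTA (y axis) for 3498 genes with a mean of at least 1000 in all 3 tables (grey), the layer 5 extratelencephalic markers (triangles) and the 4 neurofilament genes (circles); 21 genes lie outside the axes. The neurofilament genes sit above the dashed line of equal enrichment, at 0.42 to 0.95 on the y axis.

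Markers of inhibitory neurons, which are also part of the Input, were mostly lower in the IP. Of 12 inhibitory markers 11 (PL-NAc), 12 (PL-BLA) and 9 (PL-VTA) were lower and 1, 0 and 0 higher, with medians of -1.73, -1.51 and -1.29. Over all tested genes 21.7%, 20.2% and 10.5% were called lower. Sst was called higher in PL-NAc, at 0.26, and lower in PL-BLA (-0.53) and PL-VTA (-1.69), in the authors' deposited table. In PL-VTA Gad2 (-0.20), Slc32a1 (-0.43) and Syt2 (-0.61) were not called. Pvalb, which encodes parvalbumin of fast-spiking interneurons, had values of -3.48 (SE 0.14), -3.02 (SE 0.14) and -2.65 (SE 0.21) in the same order of projections in the authors' deposited table. The sign of glial transcripts was used to read the direction of the tables, so only the size of the next values is informative. Oligodendrocyte markers, 10 of 10 lower in each projection, had medians of -3.22, -2.43 and -2.49. Astrocyte markers (10, 9 and 10 of 10 lower) and microglia markers (10, 10 and 9 of 10 lower) fell too, with medians of -2.15, -1.39 and -1.44 for astrocytes and -2.47, -1.86 and -1.95 for microglia. Between PL-NAc and PL-VTA 5 astrocyte, 4 oligodendrocyte and 4 inhibitory markers were lower in PL-NAc, and 1 inhibitory marker was higher. No microglia marker was called there. Between PL-BLA and PL-VTA 1 astrocyte and 1 inhibitory marker were higher in PL-BLA, and no marker of these lists was lower. Between PL-NAc and PL-BLA 7 astrocyte, 6 oligodendrocyte, 2 inhibitory and 2 microglia markers were lower in PL-NAc, and 1 inhibitory marker was higher. Over all tested genes 3.36%, 4.61% and 1.55% were called in either direction in these comparisons, in the order given. The part that other cell types in the Input or IP have in the neurofilament differences was not tested.

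Among the relatives of the neurofilaments, calls were near the share over all genes. Of 12 other intermediate filament genes 2 were higher and 3 lower in PL-NAc, 2 and 2 in PL-BLA, and 0 and 2 in PL-VTA, with medians of -0.23, -0.30 and -0.28, where 43.1%, 41% and 21.5% of all tested genes were called in either direction. None of the 12 was called in any of the 3 comparisons between projections. Over all tested genes only 1.55% (PL-NAc and PL-BLA), 3.36% (PL-NAc and PL-VTA) and 4.61% (PL-BLA and PL-VTA) were called there. Gfap and Vim, filaments of glia, were lower in all 3 projections. In the authors' deposited table Gfap was -2.23, -2.01 and -2.58 and Vim -1.56, -1.32 and -1.19 in PL-NAc, PL-BLA and PL-VTA. Glial transcripts were used to read the direction of the fold changes, so the sign of Gfap and Vim is no result. Prph, peripherin, a filament best known from peripheral neurons, was 1.44 (SE 0.32, DESeq2 adjusted p 2.7e-05) in PL-NAc and 1.11 (SE 0.34, DESeq2 adjusted p 0.00389) in PL-BLA in the authors' deposited table. In PL-VTA the authors' deposited table gave 0.45 (SE 0.44), which missed the threshold (DESeq2 adjusted p 0.543), and its mean was only 35.8 to 48.6 normalized counts. Nes, nestin of progenitors and vessels, had a mean of 14.1 to 15.1 and was lower in PL-NAc, at -1.29 (SE 0.42), in the authors' deposited table. Lmna, a lamin of the nuclear envelope, was higher in PL-NAc (0.66, SE 0.08) and PL-BLA (0.73, SE 0.10) in the authors' deposited table.

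Enzymes that act on neurofilament tails were mostly higher or not called. Of 16 kinase and phosphatase genes 10 were higher and 1 lower in PL-NAc, 8 and 2 in PL-BLA, and 3 and 0 in PL-VTA, with medians of 0.28, 0.21 and 0.20. Over all tested genes 21.4% were higher and 21.7% lower in PL-NAc, 20.8% and 20.2% in PL-BLA, and 11% and 10.5% in PL-VTA. None of the 16 was called between projections, where 1.55% to 4.61% of all tested genes were. Cdk5, a kinase of the tail repeats, was called higher in all 3 projections, at 0.42 (SE 0.07) for PL-NAc, 0.40 (SE 0.07) for PL-BLA and 0.47 (SE 0.13) for PL-VTA in the authors' deposited table. Its activator Cdk5r1 was called higher in PL-NAc, at 0.38 (SE 0.07), and was 0.19 (SE 0.20) in PL-BLA and 0.20 (SE 0.18) in PL-VTA in the authors' deposited table, not called in either. Mapk3, a kinase of the ERK pathway, was 0.81 (SE 0.07) in PL-NAc in the authors' deposited table, the smallest p of the list there. It was also called higher in PL-BLA (0.54) and PL-VTA (0.43). Mapk9, a stress-activated kinase, was lower at -0.40 (SE 0.06) in PL-NAc and -0.20 (SE 0.07) in PL-BLA in the authors' deposited table. In PL-VTA Mapk9 was -0.28 (SE 0.13) and not called. Ppp2r2b, a regulatory subunit of protein phosphatase 2A, led in PL-BLA and PL-VTA, with 0.55 (SE 0.07) in the first and 0.49 (SE 0.13) in the second of these, per the authors' deposited table.

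Genes that move, link or remove neurofilaments went both ways. Of 16 of them 3 were higher and 8 lower in PL-NAc, 4 and 6 in PL-BLA, and 3 and 4 in PL-VTA, with medians of -0.07, -0.07 and -0.12. The shares over all tested genes were 21.4% and 21.7%, 20.8% and 20.2%, and 11% and 10.5%. Again none of the 16 was called between projections, beside 1.55% to 4.61% of all tested genes. Kif5a, the kinesin heavy chain that carries neurofilaments along axons, fell to 31.3%, 35.4% and 35.1% of Input in PL-NAc, PL-BLA and PL-VTA. In the authors' deposited table it was -1.68 (SE 0.06), -1.50 (SE 0.08) and -1.51 (SE 0.13) in that order. Dst and Macf1, which encode very large linkers between cytoskeletal systems, were also lower in all 3, Dst at -0.67, -1.03 and -0.66 and Macf1 at -1.91, -1.89 and -1.75, in the authors' deposited table. Stub1, a ubiquitin ligase, was higher in all 3, at 0.76, 0.66 and 0.54 in the authors' deposited table. Trim2, a ubiquitin ligase that acts on neurofilament proteins, was not called, at 0.11, 0.17 and 0.14 in PL-NAc, PL-BLA and PL-VTA in the authors' deposited table.

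Tubulin genes and microtubule proteins, the other long polymers of the axon, were mostly higher in each projection. Of 18 such genes 13 were higher and 2 lower in PL-NAc, 13 and 3 in PL-BLA, and 12 and 1 in PL-VTA, with medians of 0.72, 0.79 and 0.59. Over all tested genes the shares were 21.4% and 21.7%, 20.8% and 20.2%, and 11% and 10.5%. Tubb2a, a beta-tubulin, was 1.40 (SE 0.06), 1.37 (SE 0.06) and 1.13 (SE 0.13) in the 3 projections, by the authors' deposited table. Map2, a microtubule protein of dendrites, was lower, at -1.20, -1.37 and -0.98 for the same projections, by the authors' deposited table. Between PL-NAc and PL-VTA 1 gene of the 18 was higher and 1 lower, beside 1.43% and 1.94% of all tested genes. Looked up after the count was seen, they were Tuba1a, an alpha-tubulin, with a difference of 0.45 (SE 0.13, adjusted p 0.0287, Wald z), and Map1a, a microtubule-associated protein, with -0.62 (SE 0.17, adjusted p 0.0124, Wald z). Tuba1a was also higher in PL-BLA than in PL-VTA, at 0.43 (SE 0.14, adjusted p 0.0385, Wald z).

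Membrane skeleton and node genes, which hold the axon's cortex and its initial segment, were more often lower. Of 15 of them 3 were higher and 9 lower in PL-NAc, 4 and 7 in PL-BLA, and 4 and 5 in PL-VTA, with medians of -0.44, -0.32 and -0.06. All tested genes gave 21.4% and 21.7%, 20.8% and 20.2%, and 11% and 10.5%. Sptan1 and Sptbn1, both spectrins, were lower in all 3 projections by the authors' deposited table. Sptan1 was at -1.34, -1.48 and -0.99 and Sptbn1 at -1.29, -1.49 and -1.32 in PL-NAc, PL-BLA and PL-VTA. Nrcam, an adhesion molecule of nodes, was higher, at 0.58 (SE 0.08) in PL-NAc, 0.75 (SE 0.07) in PL-BLA and 0.77 (SE 0.15) in PL-VTA, by the authors' deposited table. Cntnap2, a protein of the juxtaparanode, and Epb41l3, a linker of the membrane skeleton, were less enriched in PL-NAc than in PL-VTA, with differences of -0.88 (SE 0.24, adjusted p 0.0122, Wald z) and -0.66 (SE 0.16, adjusted p 0.00316, Wald z). Cntnap2 was also lower in PL-BLA than in PL-VTA, at -0.91 (SE 0.24, adjusted p 0.00496, Wald z). Both were looked up after the count of 2 was seen. Over all tested genes 1.94% were called lower in PL-NAc than in PL-VTA, and 2.27% lower in PL-BLA than in PL-VTA. Between PL-NAc and PL-BLA 1 of the 15 was lower in PL-NAc, beside 1.02% of all tested genes.

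**Figure D5:**
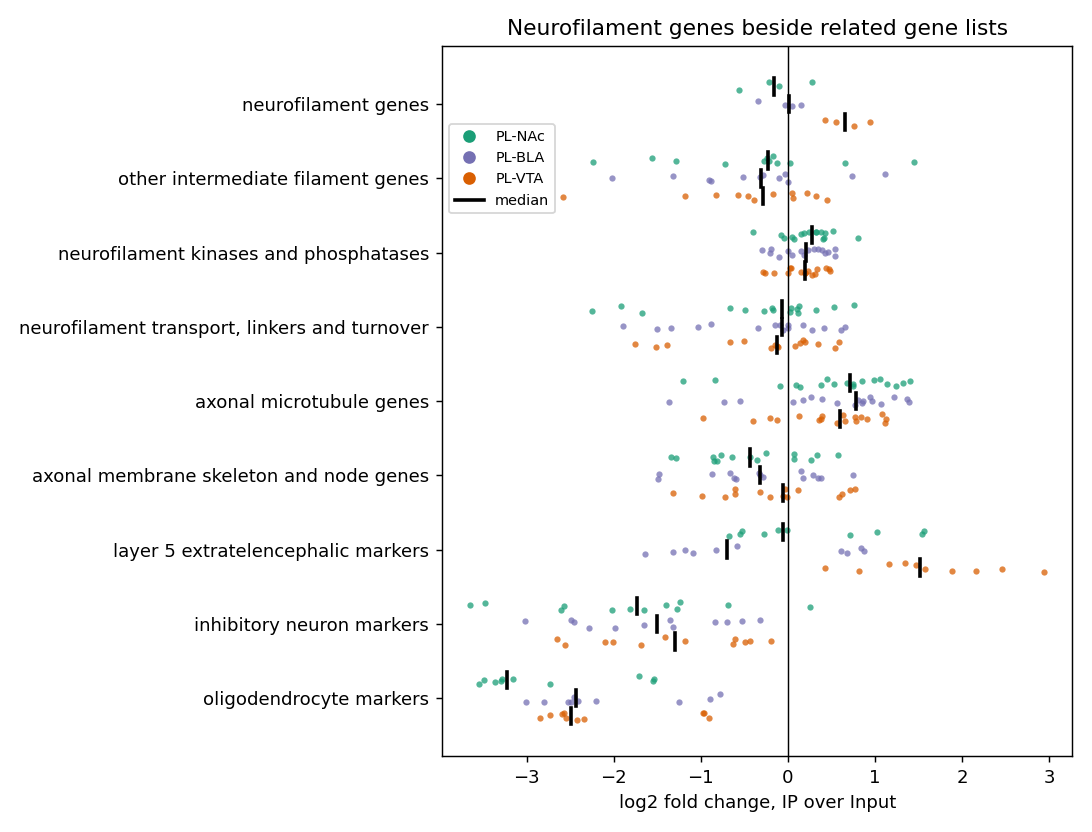
Each point is 1 gene's log2 fold change of IP over Input in PL-NAc, PL-BLA or PL-VTA, for the neurofilament genes and 8 related or marker lists, and black bars are medians. The neurofilament points of PL-VTA lie at 0.42 to 0.95, right of those of the other projections, and the layer 5 extratelencephalic markers of PL-VTA have a median of 1.52.

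The genes whose fold changes over the 3 projections came nearest to each member were sought among 3498 genes with a mean of at least 1000 in all tables, by Euclidean distance over 3 log2 fold changes. Nearest to Nefl were Efr3a, at a distance of 0.05, Syt3 (0.07) and Atp2b1 (0.10). Efr3a had fold changes of -0.13, 0.08 and 0.58 in PL-NAc, PL-BLA and PL-VTA in the authors' deposited table. Nefm had no gene as near, with Lamp5 at 0.21, Efr3a at 0.23 and Nefl itself at 0.25. Ina had Gmpr at 0.06, Ppfia2 at 0.12 and Etv5 at 0.17, and Gmpr stood at 0.33, 0.15 and 0.96 in the authors' deposited table. Nefh had a mean under 1000 in PL-NAc and PL-BLA, and in a search added after its values were seen the nearest of the same genes were Plcb4 at 0.16, Rasd2 at 0.21 and Cadps2 at 0.21. With 3 points each, these distances are descriptions.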

How the data were processed

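The members and gene lists were chosen with earlier results of these data known. The submitters' processing notes name STAR 2.3, featureCounts, DESeq2 and, as builds, mm10 and GRCm38, with no role or order. Strand setting, filters and the model are not stated there. The authors deposited 1 comparison table per projection. Its mean signal is the authors' mean of normalized counts, its log2 fold change and standard error are the authors' values, and its score is the authors' Wald statistic, per the file headers. Deposited p-values and adjusted p-values were used as they stand. Headers do not name the direction; it was taken as IP over Input from the negative sign of glial and mitochondrial transcripts, whose direction is therefore no result. The deposited log2 values look shrunken, which understates changes more where the standard error is wide; the median standard error at a mean of at least 50 was 0.124, 0.129 and 0.219 in PL-NAc, PL-BLA and PL-VTA. Differences between projections came from the deposited values (two-sided Wald z, Benjamini-Hochberg over all genes with an adjusted p in both tables); the code for this test was checked on simulated data. Intervals are 95% normal intervals. Named genes were the members, the 2 called genes of smallest p in each direction per list and projection, 9 handlers or relatives of neurofilaments, and 3 nearest genes per member; the text prints part of these, and some items are not reported here. Alternatives were a mean of at least 50, Bonferroni, 1.5-fold, centring on 3 medians and undoing the shrinkage. Computation used Python 3.11.15, numpy 2.4.6, pandas 2.3.3 and scipy 1.17.1.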

Additional observations from a re-analysis of the deposited data

Results flagged for a closer look

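Enrichment differed between projections for all 4 genes, by the test of the difference itself (Wald z, Benjamini-Hochberg adjusted). PL-NAc minus PL-VTA gave -0.66 for Nefl, -0.98 for Nefm, -0.98 for Nefh and -0.67 for Ina. PL-BLA minus PL-VTA gave -0.51 for Nefl, -0.79 for Nefm, -0.76 for Nefh and -0.79 for Ina. The 8 values are lower in PL-NAc or PL-BLA than in PL-VTA, and the 2 comparisons share the PL-VTA samples, of which there were 2 IP and 2 Input.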

How the results depend on the processing

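No paired analysis was possible because the files used here give 1 comparison per projection and no value per sample; leaving out replicates was not run for the same reason. Of 168 values of the 4 genes under 7 alternatives, 142 kept their side of the threshold, 13 lost the call and 7 gained it. The other 6 turned in sign and were called before or after. Among the 142, Nefl in PL-BLA also turned, from 0.051 to -0.004, without a call, when centred on genes with a mean of at least 50. Under centring on the pan-neuronal median, Ina turned to -0.27 in PL-NAc and -0.38 in PL-BLA, and Nefl to -0.48 in PL-BLA. Centring on the excitatory median turned Ina to -0.34 in PL-NAc and -0.48 in PL-BLA, and Nefl to -0.58 in PL-BLA. With either centre 4 genes were called in PL-NAc and 4 in PL-BLA, all lower, with the share over all genes not given here. In PL-VTA 2 were called with the pan-neuronal centre. Centred on all genes with a mean of at least 50, 4 were called in PL-NAc. For every alternative the share of all genes called is not given here, so the counts do not set the 4 genes apart. Under Bonferroni the counts were 2 (PL-NAc), 0 (PL-BLA) and 2 (PL-VTA), and 3 differed between PL-NAc and PL-VTA and 2 between PL-BLA and PL-VTA. With a change of at least 1.5-fold required, the counts were 0 (PL-NAc), 0 (PL-BLA) and 2 (PL-VTA), and 3 differed between PL-BLA and PL-VTA. With shrinkage undone, 2 were called in PL-BLA (Ina higher at 0.16, adjusted p 0.0444, Wald z) and 4 in PL-VTA (Nefh at 0.499, adjusted p 0.0249, Wald z). The 4 genes differed between PL-NAc and PL-VTA, and between PL-BLA and PL-VTA, under each centring, with shrinkage undone and at a mean of at least 50. The pan-neuronal and excitatory centres took less off PL-VTA than off PL-NAc and PL-BLA, so they could only widen these differences. PL-VTA, with 2 samples per arm, had the widest standard errors.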
